A study of Zea mays with 6 samples.

Results

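The leaf response to drought was described in the maize variety ZD619 by setting the leaf library of drought plants, whose soil held 35% of the relative soil water content (RSWC), beside the leaf library of control plants at 80% of RSWC. These are 2 of the 6 RNA-seq libraries of the study, which also hold a drought and a control library of stem and of root. All plants were labelled wild type and at the 2 to 3 leaf stage, while the study's methods withheld water from 3-week-old seedlings until the drought level was reached. RNA of each library came from 4 plants, the leaf sample from the uppermost leaves, and each tissue and treatment had 1 library. Of 109715 gene identifiers, 26426 averaged 1 FPKM or more over the leaf pair (FPKM, fragments scaled by transcript length and by the mapped fragments of the library), and these were compared as log2((drought + 1)/(control + 1)). With 1 library on each side there is no replicate check and no test. Every difference is a size of change between these libraries, and "higher" or "lower" below means in the drought library.

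When soil water runs short, a leaf closes its stomata under abscisic acid, a hormone made by cleaving carotenoids, and its cells make protective proteins and soluble sugars. Abscisic acid acts by inhibiting clade A protein phosphatases 2C (PP2Cs), which otherwise hold back SnRK2 kinases and the bZIP factors these activate, and DREB-type AP2/EREBP factors act beside this route. Photosynthesis, growth and cell wall synthesis commonly slow down in such leaves. Maize fixes carbon by the C4 pathway, in which mesophyll cells capture CO2 through PEP carboxylase and bundle sheath cells refix it through Rubisco.

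Genes of the leaf label were abundant in both leaf libraries. The summed level of the 3 mesophyll C4 markers (pep1, pdk1 and mdh6) was 5015 FPKM in drought and 13298 FPKM in control leaves, against 3368 and 3786 FPKM in drought and control stems and 8.92 and 14.2 FPKM in drought and control roots. The 7 light-harvesting markers stood apart from this order, with sums of 1247 and 4459 FPKM in drought and control leaves but 15533 and 15934 FPKM in drought and control stems, so that the libraries labelled stem held more of these transcripts than those labelled leaf. The tables of the tissues may have been scaled separately, which limits such comparisons of level. All 7 zein and oleosin seed markers were under 1 FPKM in both leaf libraries, as were the knotted-type meristem genes kn1 and lg3, while knox6 and knox7 of that family had 29.1 and 20.6 FPKM in drought, against 37.4 and 20.2 FPKM in control leaves. Of the root markers, rtcs was listed at 0 in both leaf libraries and rth3 had 10.2 FPKM in drought and 1.25 FPKM in control leaves. The root pair ran against the drought label for a defining drought gene, dhn1. It had 3.03 FPKM in the library labelled root drought and 677.7 FPKM in the one labelled root control. In the same order dhn2 had 158 and 811 FPKM, EMB5 0.0863 and 13.2 FPKM, and MGL3 0.0725 and 64.5 FPKM. Other genes of that list went the other way, RAB15 with 3301 and 1787 FPKM and DIP1 with 78.7 and 74.2 FPKM. Root values below are given only as labelled.

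Across all genes the leaf pair was balanced. At least 2-fold higher were 2176 of 26426 genes (8.23%), and at least 2-fold lower were 2034 (7.70%), with a median log2 ratio of -0.03 and the central 90% of genes between -1.27 and 1.41. At 4-fold the count was 720 higher and 479 lower, and at 16-fold 106 higher and 61 lower. The drought library held the smaller sum of FPKM (703757, against 816752 in control). Scaling the columns to 1 sum moved the median of all genes by 0.19 and gave 2874 higher and 1568 lower genes, so the share of higher among called genes was then 64.7% in place of 51.7%. The same scaling turned the sign of 10 list medians, all within 0.19 of 0. Genes on either side of the 2-fold limit hardly differed, since the nearest lay at log2 ratios of 1.0001 and 0.9995 above 0 and of -1.0006 and -0.9989 below 0.

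The direction of change went with the level of expression. Among 7834 genes with a mean of 10 to 30 FPKM, 5.95% were at least 2-fold higher and 4.44% at least 2-fold lower. Among 205 genes with a mean of 300 to 1000 FPKM, 10.2% were higher and 32.7% lower, with a median log2 ratio of -0.73. Of the 59 genes with a mean of 1000 FPKM or more, 9 were higher and 25 lower. Transcripts that were most abundant in the leaf were therefore more often lower than higher in drought, while among genes under 30 FPKM the higher ones were slightly more numerous. The median log2 ratio of the most abundant class was -0.84 with all of its genes and -0.90 without the 4 that were listed at 0 in 1 leaf library.

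**Figure D1:**
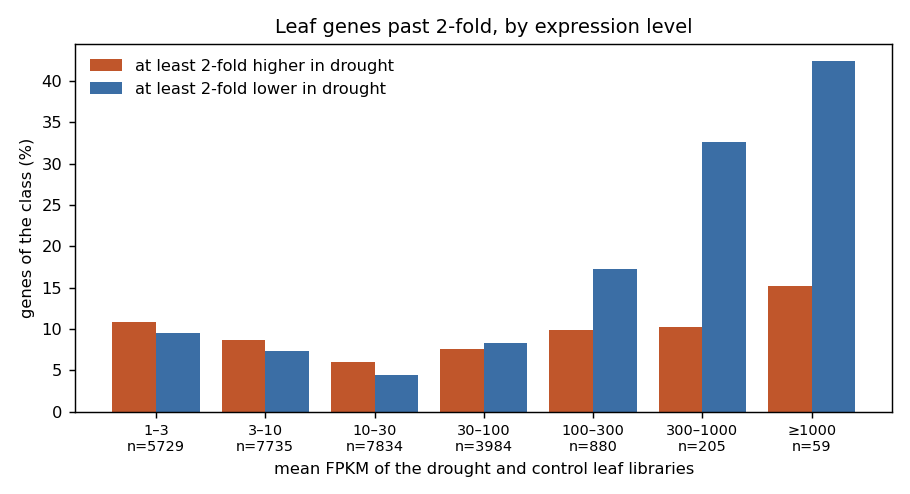
Percentage of leaf genes at least 2-fold higher (orange) and at least 2-fold lower (blue) in the drought library, in 7 classes of the mean FPKM of the leaf pair; n is the number of genes in the class. The blue bars reach 32.7% at 300 to 1000 FPKM and 42.4% from 1000 FPKM, while the orange bars stay at or under 15.3%.

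The extremes of the table were mostly genes listed at exactly 0 in 1 library of the pair. Of the 12 largest values in each direction, 23 of 24 were of this kind, and the exception was GRMZM2G073969, with 0.823 FPKM in drought and 449.8 FPKM in control leaves. AC214039.3_FG005 had 4903 FPKM in drought leaves and was listed at 0 in control leaves, yet it was also listed at 0 in drought stems and had 2441 FPKM in control stems. GRMZM2G511229, the gene with the highest FPKM of the control leaf, was listed at 0 in drought leaves, had 9747 FPKM in control leaves and was listed at 0 in all 4 stem and root libraries. Among the 26426 genes, 236 were listed at 0 in drought and 247 in control leaves, and 115 of these 483 were also at 0 in all 4 stem and root libraries. The RefSeq gene table held 7.25% of the 483, against 54.7% of the genes above 0 in both leaf libraries. An exact 0 can be a failed estimate, so no fold is given for these genes. Without them 1929 genes were at least 2-fold higher and 1798 at least 2-fold lower.

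Genes with a name in the RefSeq table gave the readable ends of the response. Of 1844 such genes 157 were at least 2-fold higher and 221 at least 2-fold lower. The highest ratio among them belonged to asn3 (GRMZM2G053669), an asparagine synthetase, with 185.9 FPKM in drought and 0.145 FPKM in control leaves. The lowest belonged to cab48 (GRMZM2G120619), a light-harvesting chlorophyll a/b protein gene, with 2.9e-05 FPKM in drought and 38.9 FPKM in control leaves. Genes of this family are near copies of each other, and how the software divided shared fragments among copies was not tested.

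**Figure D2:**
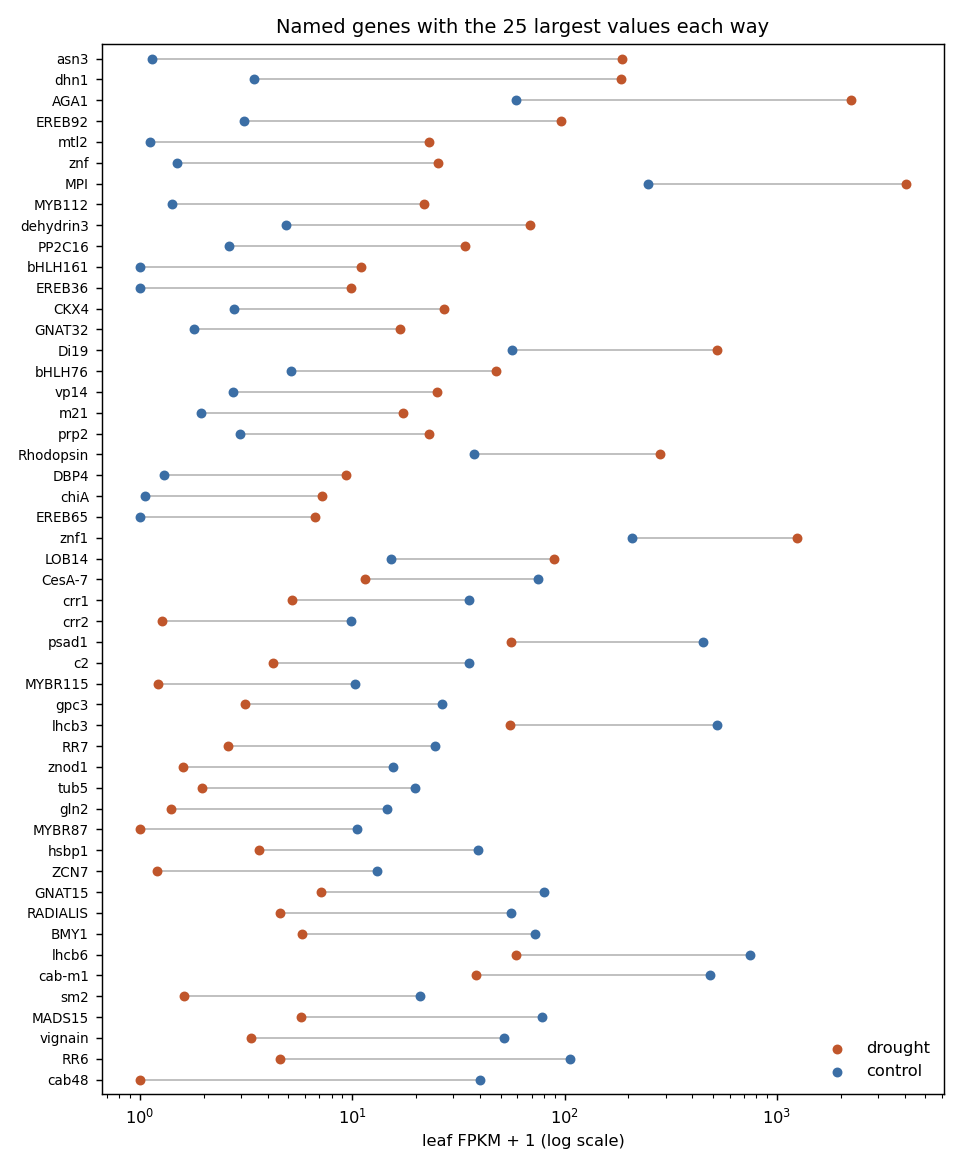
Leaf FPKM + 1 (log axis) of the 25 named genes with the highest and the 25 with the lowest log2 ratio, drought in orange and control in blue, 1 library each. MPI lay at 4062 FPKM in drought against 246 FPKM in control, and lhcb6 at 58.1 FPKM in drought against 746.6 FPKM in control.

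Dehydrin genes stood at the high end of the named genes. The dehydrin dhn1 (also rab17, GRMZM2G079440), a hydrophilic protein of drying tissues, had 184.4 FPKM in drought and 2.46 FPKM in control leaves, a log2 ratio of 5.74. The second dehydrin gene, dhn2, had 68.1 FPKM in drought and 3.87 FPKM in control leaves (3.83). RAB15 was the most abundant gene of the drought leaf at 6421 FPKM, against 2322 FPKM in control (1.47). DIP1 had 108 FPKM in drought and 65.3 FPKM in control leaves (0.72). In all, 3 of the 4 measured genes of the list built on dehydrin, LEA and rab symbols were at least 2-fold higher and none lower. Of the 4 only dhn1 and dhn2 carry a dehydrin name. Over all measured genes 8.23% were higher and 7.70% lower.

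Synthesis of abscisic acid showed a higher level at vp14 (GRMZM2G014392), the 9-cis-epoxycarotenoid dioxygenase that carries out the cleavage step, with 24.2 FPKM in drought and 1.76 FPKM in control leaves. It was the only gene of the abscisic acid list at least 2-fold higher, where 8.23% of all measured genes were higher and 7.70% lower. The other 23 measured genes of synthesis, breakdown, receptors and SnRK2 kinases gave 2 lower genes, psy2 (3.24 FPKM in drought and 9.83 FPKM in control), a phytoene synthase, and SnRK2.7 (0.724 and 3.76 FPKM in drought and control). The median of the 24 was -0.06, which changed sign when the columns were scaled to 1 sum. The receptor genes PYL9 and PYL10 had 58.1 and 44.8 FPKM in drought, against 45.7 and 32.5 FPKM in control leaves. Another entry that carries the name PYL10, GRMZM2G165567, had 47.3 FPKM in drought and 47.9 FPKM in control leaves (-0.02).

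PP2C genes, which include the negative regulators of that pathway, were at least 2-fold higher in 8 of 22 measured cases and lower in none. Their median was 0.70, and over all measured genes 8.23% were higher and 7.70% lower. PP2C16 had 33.1 FPKM in drought and 1.62 FPKM in control leaves (3.70), PP2C13 28.2 and 4.32 FPKM in drought and control (2.46), and PP2C12 22.4 and 4.27 FPKM in drought and control (2.15). PP2C4 was the most abundant of those that were higher, at 119 FPKM in drought and 34.4 FPKM in control leaves (1.77). The members were thus unlike each other, since the remaining 14 lay between -0.90 and 0.93 on the log2 scale. In the stem pair the list's median was -0.07 and in the root pair as labelled -0.12.

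Transcription factors divided by family, beside 8.23% higher and 7.70% lower over all measured genes. AP2/EREBP genes had a median of 1.29, with 13 of 24 at least 2-fold higher and 1 lower. EREB92 had 95.1 FPKM in drought and 2.11 FPKM in control leaves (4.95), and dbf1, a DRE-binding factor, had 254 and 43.8 FPKM in drought and control (2.51). EREB36 and EREB65 had 8.85 and 5.69 FPKM in drought leaves and were listed at 0 in control leaves. EREB197 was the only member at least 2-fold lower, with 5.14 FPKM in drought and 12 FPKM in control leaves. Members of this list under the filter on low FPKM were numerous (15 of 39), and with no filter the median was 0.60.

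NAC genes, a plant family with several stress regulators, were at least 2-fold higher in 5 of 13 cases and lower in 1. SNAC1 (GRMZM2G347043) had 259 FPKM in drought and 46.6 FPKM in control leaves (2.45), and NAC75 39.7 and 15.8 FPKM in drought and control (1.28). NAC20 went the other way, with 0.393 FPKM in drought and 3.31 FPKM in control leaves. Other families stayed centred near 0: 1 of 15 WRKY genes was at least 2-fold higher (WRKY67, 18.4 FPKM in drought and 3.29 FPKM in control) and none lower, and 1 of 28 homeobox genes was higher (HB128) and none lower. MYB genes spread both ways, with 5 of 28 higher and 6 lower. MYB112 had 20.8 FPKM in drought and 0.419 FPKM in control leaves, and MYBR115 0.215 and 9.29 FPKM in drought and control.

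Of the bZIP factors 3 of 32 were higher and 3 lower, where 8.23% of all measured genes were higher and 7.70% lower. bZIP17 had 140 FPKM in drought and 28.5 FPKM in control leaves (2.26), and GBF1, a G-box binding factor, 165 and 44.4 FPKM in drought and control (1.87). bZIP111 had 15.8 FPKM in drought and 73.4 FPKM in control leaves (-2.14). Outside the families, Di19 (GRMZM2G038284), of a zinc finger family named for drought induction in Arabidopsis, had 520 FPKM in drought and 55.5 FPKM in control leaves (3.20), and the zinc finger gene znf1 had 1249 and 207.3 FPKM in drought and control (2.58).

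**Figure D3:**
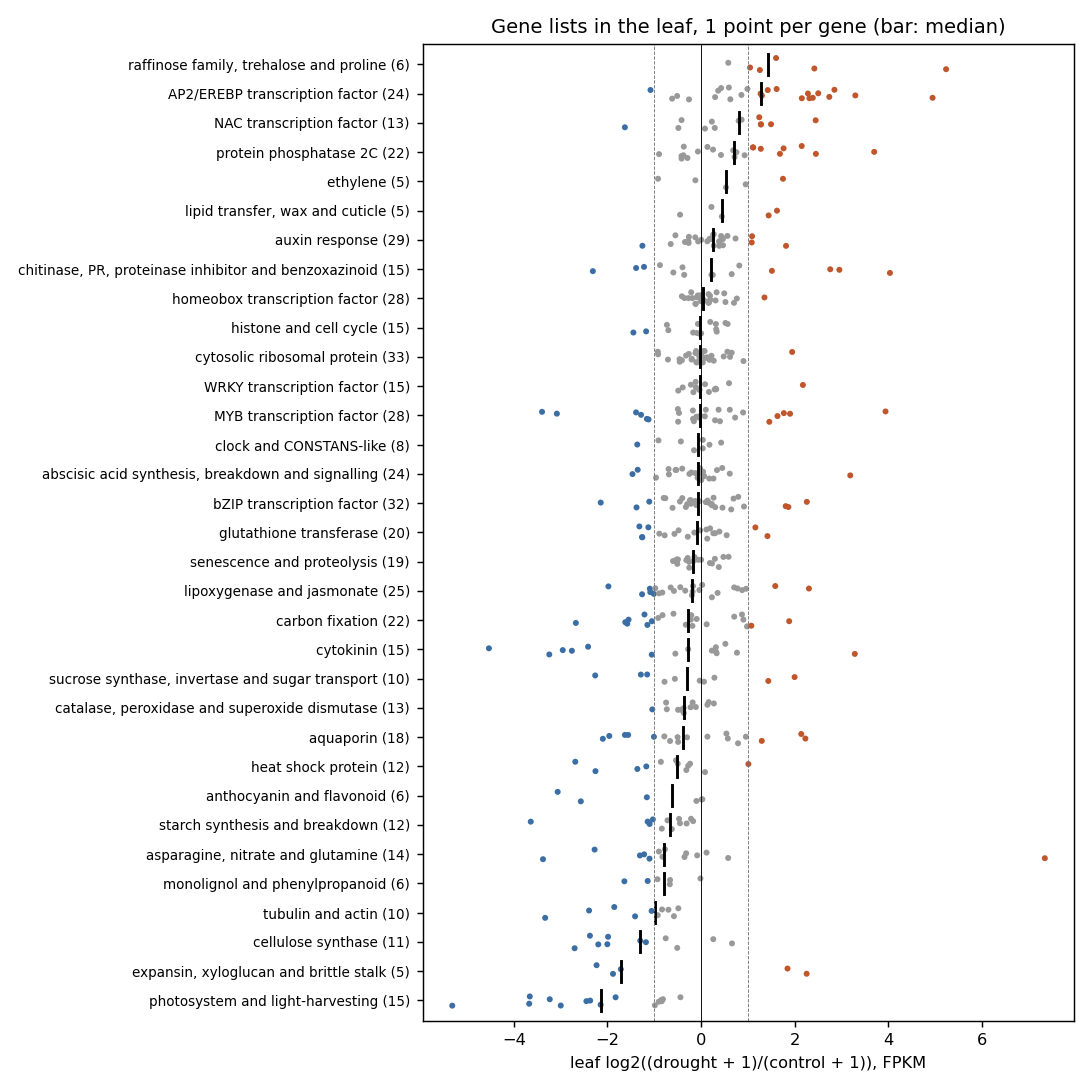
Leaf log2((drought + 1)/(control + 1)) of each measured gene in 33 lists, with the list median as a black bar and the number of measured genes in parentheses; orange points are at least 2-fold higher and blue points at least 2-fold lower in drought. The photosystem list lies wholly below 0 and the raffinose family list wholly above it, while ribosomal, WRKY and homeobox genes are centred near 0.

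Raffinose family genes were higher, starch genes lower, and sucrose genes divided, beside 8.23% at least 2-fold higher and 7.70% lower over all measured genes. AGA1 (GRMZM2G340656), an alkaline alpha-galactosidase that acts on raffinose family oligosaccharides, had 2230 FPKM in drought and 58 FPKM in control leaves (5.24). Of the 6 measured genes of the raffinose, trehalose and proline list, 5 were at least 2-fold higher and none lower, and galactinol synthase gene gols2, which feeds raffinose synthesis, had 47.2 FPKM in drought and 22.3 FPKM in control leaves (1.05). All 6 measured genes were alpha-galactosidase or galactinol synthase genes, so the counts cover no trehalose or proline gene. The list's median was 1.43 in leaf and -0.74 in stem.

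Sucrose synthase genes sus2 and sh1 had 56.2 and 264 FPKM in drought, against 13.3 and 96.9 FPKM in control leaves, while the third, sus1, had 57.6 FPKM in drought and 47 FPKM in control leaves (0.29). The cell wall invertase gene incw1 had 10.6 FPKM in drought and 24.7 FPKM in control leaves (-1.15). Sucrose phosphate synthase sps1, which makes sucrose for export, had 46.2 FPKM in drought and 226 FPKM in control leaves (-2.26), and the sucrose transporter sut1 190 and 466 FPKM in drought and control (-1.29). All 12 measured starch genes had values below 0 and 4 were at least 2-fold lower, against 7.70% of all measured genes. BMY1 (GRMZM2G058310), a beta-amylase, had 4.82 FPKM in drought and 71.6 FPKM in control leaves (-3.64), and the starch phosphorylase pho1 44.4 and 99.2 FPKM in drought and control.

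Photosystem and light-harvesting genes were lower throughout, where 7.70% of all measured genes were at least 2-fold lower. All 15 measured photosystem and light-harvesting genes lay below 0, 9 were at least 2-fold lower, and together they held 4158 FPKM in drought and 13372 FPKM in control leaves. This was 0.591% of all FPKM in drought and 1.64% in control leaves. lhcb6 (GRMZM2G092427), an antenna protein of photosystem II, had 58.1 FPKM in drought and 746.6 FPKM in control leaves (-3.66), and psad1, a photosystem I subunit, 55 and 446 FPKM in drought and control (-3.00). At the other end psbs1, whose protein is needed for heat dissipation of excess light, had 436 FPKM in drought and 592 FPKM in control leaves (-0.44). In whole leaves a smaller number of cells of a type and less RNA per cell cannot be told apart.

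The carbon fixation list, built by symbol, was less uniform than the photosystem list in its counts, with 7 of 22 at least 2-fold lower and 2 higher. Shares over all measured genes were 7.70% lower and 8.23% higher. The carbon fixation list also held genes with far more RNA in the root drought library than C4 pdk1 (1.88 FPKM). Examples were GRMZM2G107196, also named PDK1 (29.7 FPKM), and mdh2 (301 FPKM). Whether such members act in carbon fixation was not tested. pep1 (GRMZM2G083841), the C4 PEP carboxylase, had 583 FPKM in drought and 3735 FPKM in control leaves (-2.68). pdk1, the pyruvate phosphate dikinase that regenerates its substrate, had 3669 and 8124 FPKM in drought and control (-1.15), and a Rubisco small subunit gene (GRMZM2G113033) had 910 and 2797 FPKM in drought and control (-1.62). The NADP malic enzyme gene me3 of the bundle sheath had 1356 FPKM in drought and 1699 FPKM in control leaves, and rca1, a Rubisco activase, 530 and 488 FPKM in drought and control. PPCK1, a kinase that activates PEP carboxylase, was among the 2 higher genes, with 18.4 FPKM in drought and 8.21 FPKM in control leaves. The other, rca3, was low, with 4.34 FPKM in drought and 0.447 FPKM in control leaves. Of the 3 chlorophyll synthesis genes none passed 2-fold, and oy1, a magnesium chelatase subunit, had 80.5 FPKM in drought and 154 FPKM in control leaves.

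Nitrogen genes combined the highest named value with a lower remainder. Of the 14 measured genes only asn3 was at least 2-fold higher, and 5 were lower, beside 8.23% higher and 7.70% lower over all measured genes. The nitrate reductase gene NNR1 had 13.1 FPKM in drought and 67.2 FPKM in control leaves (-2.28), and the glutamine synthetase gene gln2 (GRMZM2G024104) had 0.397 and 13.5 FPKM in drought and control (-3.38). The other measured asparagine synthetase, asn1, had 50.3 FPKM in drought and 46.2 FPKM in control leaves, so that asn3 was the more abundant in drought only.

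Cellulose synthase and cytoskeleton genes were mostly lower in the leaf, where 7.70% of all measured genes were at least 2-fold lower and 8.23% higher. Of 11 genes of the cellulose synthase list 7 were at least 2-fold lower and none higher, and of 10 tubulin and actin genes 5 were lower and none higher. The 7 include CslF6-1, a cellulose synthase-like gene (-1.30). CesA-5 and CesA-8 lay above 0, at 0.66 and 0.26 on the log2 scale. CesA-7 had 10.5 FPKM in drought and 74.1 FPKM in control leaves (-2.70), the beta-tubulin gene tub5 0.96 and 18.7 FPKM in drought and control (-3.33), and the alpha-tubulin gene tua4 15.6 and 86 FPKM in drought and control (-2.39). bk2 and bk4, COBRA-like genes of cell wall strength, had 1.9 and 13.1 FPKM in drought, against 12.6 and 45.2 FPKM in control leaves. The expansin expB8 and the xyloglucan gene xet1 were at least 2-fold higher, with 22.6 and 19.8 FPKM in drought, against 3.92 and 4.78 FPKM in control leaves. Of 15 histone and cell cycle genes 2 were at least 2-fold lower and none higher, with a median of -0.03 that changed sign on scaling to 1 sum. The 6 lignin pathway genes all lay below 0 and 2 were at least 2-fold lower, among them the CAD gene bm1 (4.3 FPKM in drought and 15.5 FPKM in control).

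In the flavonoid pathway, chalcone synthase c2 had 3.24 FPKM in drought and 34.4 FPKM in control leaves (-3.06), and chalcone isomerase chi1 8.64 and 56.2 FPKM in drought and control (-2.57). These are consecutive steps at the head of the pathway. The late gene bz2 had 4.29 FPKM in drought and 4.24 FPKM in control leaves.

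Several cytokinin genes were far lower in drought. Among the type-A response regulators, which respond to cytokinin, RR6 (GRMZM2G129954) had 3.57 FPKM in drought and 104.9 FPKM in control leaves (-4.53), RR7 1.59 and 23.6 FPKM in drought and control (-3.24), and crr1 4.21 and 34.3 FPKM in drought and control (-2.76). CKX4, a cytokinin oxidase that degrades the hormone, was the only gene of the list at least 2-fold higher, with 26.1 FPKM in drought and 1.78 FPKM in control leaves (3.29). The other measured oxidase genes cko3 and cko2 had 1.62 and 17.4 FPKM in drought, against 4.44 and 21.3 FPKM in control leaves. The receptor genes HK1, hk2 and hk3 lay between 0.23 and 0.52 on the log2 scale. In all, 6 of 15 genes were at least 2-fold lower, against 7.70% of all measured genes.

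Other hormone lists had genes past 2-fold in both directions, beside 8.23% higher and 7.70% lower over all measured genes. In the jasmonate list 2 of 25 genes were at least 2-fold higher and 5 lower, and lox10, a lipoxygenase and one of the most abundant leaf transcripts, had 2111 FPKM in drought and 4160 FPKM in control leaves. The TIFY family genes TIFY28 and TIFY25, of the family of jasmonate repressors, differed, with 17.2 and 63.9 FPKM in drought, against 2.68 and 255 FPKM in control leaves. The allene oxide synthase gene aos1, of jasmonate synthesis, had 87.4 FPKM in drought and 28.4 FPKM in control leaves (1.59). Among 29 auxin genes 3 were higher and 1 lower, and the gibberellin synthesis gene an1 had 2.56 FPKM in drought and 7.55 FPKM in control leaves (-1.26). The ethylene synthesis gene acs7 had 4.68 FPKM in drought and 0.685 FPKM in control leaves.

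Water channels were divided within their subfamilies. Of 18 measured aquaporins 3 were at least 2-fold higher and 5 lower, beside 8.23% higher and 7.70% lower over all measured genes. PIP2-6 and PIP1-5, plasma membrane channels, had 0.471 and 2.43 FPKM in drought, against 5.3 and 12.4 FPKM in control leaves. PIP2-4 had 3.98 FPKM in drought and 0.0608 FPKM in control leaves. Among the NIP2 genes, NIP2-2 had 50.5 FPKM in drought and 10.7 FPKM in control leaves (2.14), while Lsi6 (NIP2-3), a silicon transporter, had 10.3 and 32.4 FPKM in drought and control (-1.56).

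Defence and surface genes held another abundant transcript of the drought leaf. MPI (GRMZM2G028393), the maize proteinase inhibitor, had 4062 FPKM in drought and 246 FPKM in control leaves (4.04). The chitinase chiA had 6.19 FPKM in drought and 0.06 FPKM in control leaves and prp2, a pathogenesis-related protein gene, 22 and 1.97 FPKM in drought and control. The benzoxazinoid synthesis genes BX4 and BX5, for cytochrome P450 enzymes, had 21.8 and 41 FPKM in drought, against 112 and 109 FPKM in control leaves. The lipid transfer protein genes plt1 and plt2 had 470 and 207 FPKM in drought, against 152 and 75.5 FPKM in control leaves.

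Other stress and housekeeping lists gave the following counts, beside 8.23% higher and 7.70% lower over all measured genes. Of 13 catalase, superoxide dismutase, thioredoxin and ascorbate-cycle genes none was at least 2-fold higher and 1 was lower (apx2, 60.2 FPKM in drought and 125 FPKM in control). Of 19 autophagy and senescence protease genes none passed 2-fold in either direction, and see1, a senescence-enhanced protease, had 1052 FPKM in drought and 1482 FPKM in control leaves. Of 12 heat shock protein genes 1 was higher and 4 lower, with a median of -0.52 and HSP90-1 at 5.19 FPKM in drought and 38.9 FPKM in control leaves (-2.69). Of 33 ribosomal protein genes picked by symbol 1 was higher and none lower, with a median of -0.03. Of the study's MAPKKK family 49 genes were measured, 3 were at least 2-fold higher and none lower, with a median of 0.09. The paper called ZmMAPKKK18, ZmMAPKKK19, ZmMAPKKK20 and ZmMAPKKK56 in leaf, by fold change and p-value together rather than the size limit and filter used here. ZmMAPKKK19 and ZmMAPKKK56 were among the 3, while ZmMAPKKK18 and ZmMAPKKK20 fell under the filter on low FPKM. These had 1.06 and 1.59 FPKM in drought, against 0.0543 and 0.0919 FPKM in control leaves.

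Set beside the other tissues, the low cell wall values were found in the leaf pair and not in the stem pair. The cellulose synthase list had a median of -1.30 in leaf, 1.54 in stem and 0.62 in root as labelled, and the tubulin and actin list -0.99 in leaf, 0.81 in stem and 1.01 in root. c2 had 571 FPKM in drought and 39.4 FPKM in control stems (3.82), against its -3.06 in leaf. The photosystem list had a median of -2.15 in leaf and -0.09 in stem. The median of all measured genes was -0.03 in leaf, 0.06 in stem and 0.30 in root. No difference between tissues was tested, since each rests on 1 library per side.

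**Figure D4:**
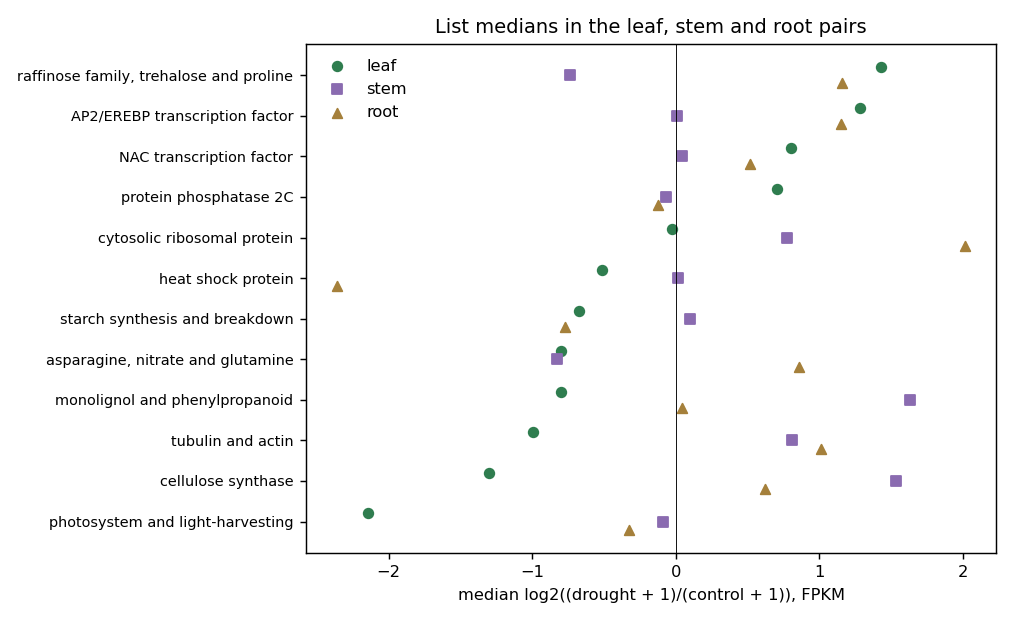
Median log2((drought + 1)/(control + 1)) of 12 gene lists in the leaf (circles), stem (squares) and root (triangles) pairs, over genes that averaged 1 FPKM or more in that pair. Cellulose synthase and tubulin genes lie left of 0 in leaf and right of 0 in stem and root, and photosystem genes lie at -2.15 in leaf and -0.09 in stem.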

How the data were processed

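RNA of leaf, stem and root was sequenced in 6 libraries. Per the study's methods, the authors used TopHat for alignment to B73, then Cufflinks and Cuffdiff; tool versions and the genome release are not given in the sources used here. The values the authors deposited were taken as FPKM, in 1 table per tissue. A column of log2 ratios of drought to control, the authors' own comparison, was not used. The study's supplement lists fewer aligned reads and a lower mapping rate for the drought leaf library than for the control leaf library. Reads per gene could not be recovered from low FPKM values, so counting error is unknown. Sums of FPKM give no depth.

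Leaf columns were compared as log2 of FPKM + 1 over genes averaging 1 FPKM or more, with 2-fold (log2 of 1) as the size limit, in Python 3.11.15 with pandas 2.3.3 and NumPy 2.4.6, and plotted with Matplotlib 3.10.9. The log2 scale with a pseudocount of 1 understates changes of low genes. The step that counts genes past 2-fold was tested on simulated data with known folds, which says nothing of the error between libraries. Columns of other per-sample values left unused numbered 0.

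Gene names came from RefSeq (Zm-B73-REFERENCE-NAM-5.0), which matched 18777 identifiers (17.1%) and 53.9% of the measured ones; that assembly may differ from the one used for mapping, so no coordinates are given. Named genes were the 12 largest values in each direction, the 25 largest in each direction among genes with a name, up to 4 members per list with the largest change and its most abundant one, the 10 genes with the highest FPKM in each leaf library, and cell type markers, 1 of which is not reported here; others were chosen after their values were seen. The 37 lists were built by symbol, their members and the comparison being chosen with earlier results of these data known, and symbols of other genes were removed by name after the tables were read. Alternatives were pseudocounts of 0.1 and 0.01 FPKM, no filter, a mean of at least 10 FPKM, a 4-fold limit, centring and scaling. A planned search for promoter motifs was not run, as no promoter sequence was used here.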

Additional observations from a re-analysis of the deposited data

Results flagged for a closer look

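Some lists had medians of opposite sign in the leaf pair and in another tissue pair, each at least 0.5 from 0 on the log2 scale; none of these differences was tested, as each tissue has 1 library per treatment. The cellulose synthase list, which includes CslF6-1, had a median of -1.30 in leaf, against 1.54 in stem and 0.62 in root. Tubulin and actin genes had -0.99 in leaf, against 0.81 in stem and 1.01 in root. The 5 measured expansin, xyloglucan and brittle stalk genes had -1.71 in leaf, against 0.51 in stem and 1.07 in root over 14 and 13 genes, but the leaf median was 0.046 with no filter on low FPKM and 0.067 over the 4 genes averaging 10 FPKM or more. Monolignol and phenylpropanoid genes had -0.80 in leaf and 1.63 in stem. Asparagine, nitrate and glutamine genes had -0.80 in leaf and 0.86 in root. The raffinose family, trehalose and proline list, with no measured trehalose or proline gene in leaf, had 1.43 in leaf and -0.74 in stem. The root library labelled control held more dhn1 than the one labelled drought (3.03 FPKM in root drought and 677.7 FPKM in root control). In the same list dhn2, EMB5 and MGL3 went the same way. RAB15 (3301 FPKM in root drought and 1787 FPKM in root control) and DIP1 went the other way. What this means for the root values was not tested.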

How the results depend on the processing

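No paired analysis was possible because each tissue and treatment had 1 library, and for the same reason no replicate could be left out. Restricting the comparison to genes averaging 10 FPKM or more, 885 genes were at least 2-fold higher and 922 lower, as fewer genes were compared, and at a 4-fold limit 720 were higher and 479 lower. The other alternatives kept both counts within 1.5 times. With no filter on low FPKM the median of the NAC list was 0.20, that of the AP2/EREBP list 0.60 and that of the expansin, xyloglucan and brittle stalk list 0.046, the last having turned from -1.71. Under the limit of 10 FPKM the last was 0.067 over 4 genes, the anthocyanin and flavonoid list -2.57 and the lipid transfer, wax and cuticle list 1.45, over 3 genes each. Scaling to 1 sum, chosen for lists after seeing the data, changed the sign of 10 list medians, none farther than 0.19 from 0. Leaving out genes listed at 0, also chosen after seeing the data, moved no list median by 1.5-fold. A pseudocount of 0.1 FPKM moved 56 of 217 named genes by more than 1.5-fold, all farther from 0. The motif search was not run. Reads per gene are unknown, so values near 1 FPKM have no known counting error.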

Other observations

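Genes of flowering and of thiamine synthesis, chosen after their values were seen, stood out among the named genes. ZCN7 and ZCN8, members of the family of the florigen FT, had 0.198 and 0.479 FPKM in drought, against 12.1 and 6.19 FPKM in control leaves, while ZCN26 had 6.23 FPKM in drought and 1.63 FPKM in control leaves. The MADS-box gene MADS15 had 4.71 FPKM in drought and 76.9 FPKM in control leaves, and the MADS-box genes m20 and m21 had 75.6 and 16.4 FPKM in drought, against 14.0 and 0.949 FPKM in control leaves. The thiamine synthesis genes thi1 and thi2 had 835 and 698 FPKM in drought, against 3050 and 2722 FPKM in control leaves, and were also lower in stem, with log2 ratios of -0.92 and -0.99. The ferritin gene fer1, for iron storage, had 109 FPKM in drought and 233 FPKM in control leaves.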
